A study of Homo sapiens with 12 samples.

Results

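The comparison described here is how the difference between osimertinib and erlotinib depended on the cell line. It is defined by the study's groups, and no measured value enters its definition: the log2 difference of osimertinib minus erlotinib in H1650 cells, minus the same difference in PC9 cells, called the interaction below. It used the 8 drug-treated libraries of the 12 in the series. A positive interaction means that expression with osimertinib, relative to erlotinib, was higher in H1650 than in PC9.

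PolyA RNA was sequenced from PC9 and H1650, human lung adenocarcinoma cell lines that both carry the EGFR deletion delE746-A750 and that the labels otherwise list as wild-type in genotype. Each line was treated for 36 h with 10 µM erlotinib or with 0.1 µM osimertinib, and a T0 group in 0.1% DMSO was collected at 0 h. Each of the 6 groups had 2 replicates. The study calls the replicates biological. Whether replicates shared a day or batch is not given, and p-values measure the spread between these libraries. The doses of the drugs differ, so dose is part of every drug-to-drug difference. Both lines received the same doses, but a line's response to dose cannot be told apart from its response to the drug. No 36 h vehicle group was analysed here, so any difference from T0 holds time in culture as well as drug. Each line is 1 line, and cell line cannot be told apart from anything else that differed between the 2 lines.

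Erlotinib and osimertinib both inhibit the kinase EGFR, the first reversibly and the second by a covalent bond with preference for mutant receptors. Inhibition of EGFR lowers signaling through ERK and AKT, and in cells that depend on the receptor it slows the cell cycle and shifts metabolism. The integrated stress response is a separate route in which kinases that sense stress phosphorylate eIF2α, the transcription factor ATF4 accumulates, and genes for amino acid synthesis, amino acid uptake and tRNA charging are induced. Cholesterol synthesis genes are controlled by SREBP2, hypoxia genes by HIF1, S-phase genes by E2F factors and antiviral genes by STAT and IRF factors.

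The 8 treated libraries held between 17961765 and 25673318 counts, with a median of 21054933. Mitochondrial genes took 5.77% to 7.2% of the counts. Epithelial markers were present in both lines, with CDH1, KRT8, KRT18 and KRT19 higher with osimertinib in both, whereas the lung markers NKX2-1 and SFTPB had at most 1 read summed over any treated group. Another lung marker, NAPSA, passed the expression filter. The leukocyte gene PTPRC had 1 to 7 reads per group, CD3E had 0 and the fibroblast genes DCN and LUM had at most 2 and 1. Of the 9 markers of other cell types, 5 passed the expression filter and 4 did not. All 9 summed to 12.7 to 48.7 CPM per library, against 6150 to 13200 CPM for the 9 epithelial and lung markers.

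Promoter sequence is shown for 8 genes named in the results below, each with its matches to the element searched for its pathway in capitals. All are RefSeq sequence of GRCh38.p14, from 250 bases before to 50 bases after the gene's start, and they run 5′ to 3′ on the gene's strand. The first 4 carry the C/EBP-ATF response element searched as TGATGNAA. ASNS, the asparagine synthetase (chr7:97872359-97872658, minus strand), CHAC1, which degrades glutathione (chr15:40953221-40953520, plus strand), and GARS1, the glycyl-tRNA synthetase (chr7:30594628-30594927, plus strand), fell further with osimertinib in PC9 than in H1650. SLC7A1, a cationic amino acid transporter (chr13:29595639-29595938, minus strand), was lower with osimertinib in both lines by amounts close enough to count as shared, as defined below.
ASNS: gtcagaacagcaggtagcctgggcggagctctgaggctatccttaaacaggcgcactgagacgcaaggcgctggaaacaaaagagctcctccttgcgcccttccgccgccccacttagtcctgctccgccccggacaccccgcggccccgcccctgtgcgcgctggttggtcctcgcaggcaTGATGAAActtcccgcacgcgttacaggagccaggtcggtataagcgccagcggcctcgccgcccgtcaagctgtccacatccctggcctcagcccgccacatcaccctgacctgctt
CHAC1: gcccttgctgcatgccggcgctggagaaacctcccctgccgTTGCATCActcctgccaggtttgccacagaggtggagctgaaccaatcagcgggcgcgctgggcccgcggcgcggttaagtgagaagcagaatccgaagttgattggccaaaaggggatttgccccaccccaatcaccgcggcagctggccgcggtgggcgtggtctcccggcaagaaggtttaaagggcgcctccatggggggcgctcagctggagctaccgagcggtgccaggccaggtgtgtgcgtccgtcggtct
GARS1: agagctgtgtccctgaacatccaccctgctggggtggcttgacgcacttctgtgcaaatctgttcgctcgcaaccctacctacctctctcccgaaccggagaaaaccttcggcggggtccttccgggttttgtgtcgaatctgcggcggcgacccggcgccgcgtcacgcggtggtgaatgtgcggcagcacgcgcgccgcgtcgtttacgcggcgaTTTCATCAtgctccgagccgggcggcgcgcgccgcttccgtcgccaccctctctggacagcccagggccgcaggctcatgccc
SLC7A1: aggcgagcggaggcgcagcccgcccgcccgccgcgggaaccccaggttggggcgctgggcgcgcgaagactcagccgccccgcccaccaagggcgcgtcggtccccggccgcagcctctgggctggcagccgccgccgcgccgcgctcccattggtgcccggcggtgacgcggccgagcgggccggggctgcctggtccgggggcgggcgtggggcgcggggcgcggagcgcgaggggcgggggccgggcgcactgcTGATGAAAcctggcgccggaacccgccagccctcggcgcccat

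The next promoters belong to genes that moved in one line only, to different extents or in opposite directions. BNIP3, a mitophagy receptor (chr10:131981874-131982173, minus strand), and PDK1, which restrains pyruvate dehydrogenase (chr2:172555840-172556139, plus strand), hold the core of the hypoxia response element, ACGTG. IFIT1, an interferon-induced antiviral protein (chr10:89392373-89392672, plus strand), holds the interferon-stimulated response element, searched as TTTC, any 2 bases and TTTC. E2F1, a factor that drives S-phase genes (chr20:33686336-33686635, minus strand), holds the E2F element TTTGGCGC.
BNIP3: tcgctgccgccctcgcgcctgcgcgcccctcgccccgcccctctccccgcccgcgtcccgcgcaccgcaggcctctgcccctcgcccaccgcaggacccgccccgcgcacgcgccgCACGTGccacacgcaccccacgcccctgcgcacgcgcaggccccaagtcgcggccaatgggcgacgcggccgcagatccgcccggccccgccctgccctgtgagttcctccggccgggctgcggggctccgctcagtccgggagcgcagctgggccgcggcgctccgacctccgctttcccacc
PDK1: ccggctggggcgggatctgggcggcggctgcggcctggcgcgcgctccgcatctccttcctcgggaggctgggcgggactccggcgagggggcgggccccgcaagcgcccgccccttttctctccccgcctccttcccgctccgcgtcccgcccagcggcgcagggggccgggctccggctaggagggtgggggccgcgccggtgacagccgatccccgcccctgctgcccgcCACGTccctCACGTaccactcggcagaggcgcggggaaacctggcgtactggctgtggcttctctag
IFIT1: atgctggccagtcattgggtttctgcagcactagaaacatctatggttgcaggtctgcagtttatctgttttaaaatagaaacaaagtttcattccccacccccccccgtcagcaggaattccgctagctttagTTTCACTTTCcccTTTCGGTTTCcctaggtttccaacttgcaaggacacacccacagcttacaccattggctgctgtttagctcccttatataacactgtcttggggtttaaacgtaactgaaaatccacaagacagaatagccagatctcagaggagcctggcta
E2F1: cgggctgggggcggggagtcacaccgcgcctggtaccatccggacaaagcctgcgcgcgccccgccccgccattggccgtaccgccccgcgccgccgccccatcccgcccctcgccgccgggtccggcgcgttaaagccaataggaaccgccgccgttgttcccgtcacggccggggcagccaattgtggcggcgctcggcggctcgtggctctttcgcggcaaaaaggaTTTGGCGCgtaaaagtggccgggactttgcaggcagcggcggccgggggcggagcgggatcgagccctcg

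Both strands were searched in the promoters of 27305 genes, of which 12026 of the 18540 genes tested matched by name. The C/EBP-ATF letters were in 4.46% of all genes and 2.89% of the tested genes, against 7 of 16 aminoacyl-tRNA synthetase genes, 5 of 9 amino acid transporter genes and 2 of 8 amino acid synthesis genes with a promoter. The ACGTG core was in 24.9% of all genes and 31.3% of the tested genes, against 9 of 14 hypoxia genes and 11 of 18 glycolysis genes. It was not particular to these lists. It was in 7 of 10 caspase, apoptosome and death receptor genes, 10 of 15 ribosome biogenesis genes and 0 of 9 EGF family genes. The interferon letters were in 4.38% and 3.96%, against 18 of 26 interferon-stimulated genes, and the E2F letters in 0.795% and 1.3%, against 7 of 23 replication genes. The sterol element searched as TCACNCCAC was in 1.39% and 1.44%, and in 0 of the 16 cholesterol genes with a promoter. Overlapping matches of 2 motifs were found in 7 genes for the C/EBP-ATF and interferon letters, in 14 for C/EBP-ATF and ACGTG and in 14 for ACGTG and the sterol element. A match is a description of the letters, not a binding site or a cause, and the C/EBP-ATF letters occurred in a gene with the interaction called (ASNS) and in a gene counted as shared (SLC7A1).

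Across all genes, the drugs differed in both lines and the differences depended on line for a minority of genes. Of 18540 genes tested, 3078 differed between the drugs in PC9 (16.6%; 1899 or 10.2% higher with osimertinib and 1179 or 6.36% lower) and 1527 in H1650 (8.24%; 886 or 4.78% higher and 641 or 3.46% lower), by edgeR's quasi-likelihood test at a Benjamini-Hochberg adjusted p under 0.05. The interaction passed the same threshold for 924 genes (4.98%), 304 with a positive (1.64%) and 620 with a negative value (3.34%). Of these, 256 had an interaction above 2-fold and 66 above 4-fold. The interaction was called for 7.74% of genes with a mean of at least 10 CPM (normalized counts scaled to a common library total) and for 1.58% of genes below that mean.

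Most genes that passed the test in both lines went the same way. Of 744 such genes, 682 (91.7%) had the same direction, 413 higher and 269 lower with osimertinib, and 62 had opposite directions (0.334% of genes tested), 44 higher in PC9 and lower in H1650 and 18 the reverse. The genes called in both lines were 24.2% of the PC9 calls and 48.7% of the H1650 calls. A gene was described as shared when it was called in both lines in the same direction and the 95% interval of its interaction lay within 1 log2 unit of 0. There were 581 such genes (3.13%), 370 higher and 211 lower with osimertinib. Of these, 55 also had the interaction called, so being shared did not exclude an interaction call. Without osimertinib replicate 1 of H1650 there were 287 shared genes and 729 H1650 calls. Without osimertinib replicate 2 of PC9 there were 2023 PC9 calls.

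Most genes called in a single line did not have the interaction called. Of the genes called in PC9 only, 530 also had the interaction called (2.86% of genes tested; 409 higher and 121 lower in PC9 with osimertinib), and 1804 did not (9.73%), which is 77.3% of the PC9-only calls. Of those called in H1650 only, 169 had the interaction called (0.912%; 83 higher and 86 lower) and 614 did not (3.31%), which is 78.4% of the H1650-only calls. A further 109 genes (0.588%) changed in the same direction in both lines and yet had the interaction called, 92 with the larger change in PC9 and 17 with the larger change in H1650, and 573 (3.09%) changed in the same direction with no interaction call. In 54 genes (0.291%) the interaction was called and neither line's own difference was, and 14625 genes (78.9%) passed no test. Over all genes tested, Pearson's correlation across genes between the 2 lines' drug differences was 0.139, and it was 0.381 over genes of at least 10 CPM. Genes are not independent replicates and all share the same 8 libraries.

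**Figure D1:**
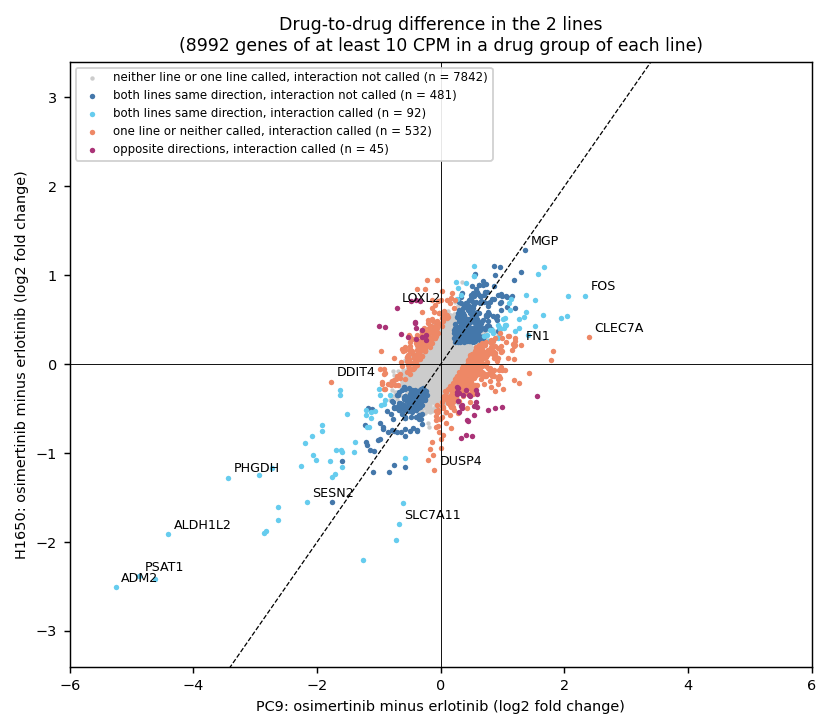
Log2 difference of osimertinib minus erlotinib in PC9 (horizontal) and H1650 (vertical), 1 point per gene, for the 8992 genes with at least 10 CPM in a drug group of each line, coloured by which tests passed. The 481 genes called in both lines in the same direction without an interaction call lie along the diagonal, and the 45 called in opposite directions lie in the other quadrants.

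Among the genes with the largest effects common to both lines, osimertinib gave higher levels of MGP, C3 and UCA1 and lower levels of NIBAN1. MGP encodes a secreted inhibitor of calcification (chr12:14881181-14885926 in GRCh38). In PC9 it had 45.1 and 52.2 CPM with erlotinib and 113 and 139 CPM with osimertinib, and in H1650 63.6 and 69.2 against 156 and 168 CPM. The drug groups did not overlap in either line. The difference was 1.37 ± 0.10 (log2, SE) in PC9 and 1.28 ± 0.10 in H1650, and the interaction was −0.08 with a 95% interval of −0.36 to 0.19. UCA1, a long non-coding RNA, had 67.4 and 65.5 against 131 and 128 CPM in PC9 and 73.3 and 80.1 against 152 and 175 CPM in H1650. For UCA1 the interaction was 0.13 (−0.12 to 0.37), and for C3, the central complement component, it was −0.25 (−0.61 to 0.10). NIBAN1, a stress-responsive gene, had 71.2 and 81.2 against 21.8 and 23.2 CPM in PC9 and 27.6 and 32.5 against 11 and 9.64 CPM in H1650, so it was lower with osimertinib in all 4 libraries. Its interaction was 0.22 (−0.11 to 0.55).

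CYP1A1, the aryl hydrocarbon receptor's best known target and an enzyme that oxidizes aromatic drugs, was also lower with osimertinib in both lines. It had 5.32 and 4.39 CPM with erlotinib and 0.738 and 0.781 CPM with osimertinib in PC9, and 17.6 and 25.6 against 2.33 and 1.95 CPM in H1650. The groups did not overlap, and the differences were −2.67 ± 0.29 and −3.33 ± 0.21. The interaction of −0.67 was not called (adjusted p = 0.454 by edgeR's quasi-likelihood test), with an interval of −1.50 to 0.16 that includes differences beyond 1 log2 unit. CYP1B1 and the receptor's repressor AHRR were shared. Of 12 genes in the aryl hydrocarbon receptor list, 4 were lower in PC9 (6.36% of all genes tested) and 6 in H1650 (3.46%).

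Many genes of the ATF4 program were lower with osimertinib in both lines, and for ATF4 and many of its targets, though not for the median regulator, the difference was larger in PC9. ATF4 itself had 762 and 775 CPM with erlotinib against 325 and 344 CPM with osimertinib in PC9, and 429 and 422 against 284 and 286 CPM in H1650. The 4 erlotinib libraries lay above both T0 libraries of their line (290 and 305 CPM in PC9, 207 and 208 CPM in H1650). The difference was −1.20 ± 0.08 in PC9 and −0.58 ± 0.08 in H1650, and the interaction was 0.63 ± 0.11 (adjusted p = 0.000244, edgeR quasi-likelihood test). Of 14 regulators of the program, 8 were lower and 3 higher with osimertinib in PC9 (6.36% and 10.2% of all genes tested). In H1650 8 were lower and 1 higher (3.46% and 4.78%), and the medians were −0.337 in PC9 and −0.395 in H1650. Of the regulators 4 had a positive interaction (1.64% of all genes): ATF4, its partner CEBPG, the pseudokinase TRIB3 and the chromatin protein NUPR1. The H1650 count became 5 without osimertinib replicate 2 of H1650. DDIT3 (CHOP), CEBPB and JDP2 were among 7 shared regulators, a count that became 2 without osimertinib replicate 2 of H1650 and 4 without erlotinib replicate 1 of PC9, osimertinib replicate 1 of PC9 or osimertinib replicate 1 of H1650, while the eIF2α kinase EIF2AK3 (PERK) was higher with osimertinib in PC9 (0.77 ± 0.12) and had a difference of 0.16 ± 0.11 in H1650. Its interaction of −0.61 (adjusted p = 0.0249) was lost without erlotinib replicate 1 of PC9 (0.0545), osimertinib replicate 2 of PC9 (0.175) or osimertinib replicate 1 (0.0961) or 2 (0.0548) of H1650.

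Genes for serine and one-carbon synthesis were among those of the program with large interactions. Of 13 amino acid synthesis genes, 12 were lower with osimertinib in PC9 (6.36% of all genes tested) and 11 in H1650 (3.46%). A positive interaction was called for 10 (1.64%). The median difference was −1.76 in PC9 and −1.16 in H1650 on the log2 scale, against 0.0034 and 0 over all genes tested. PSAT1, the second enzyme of serine synthesis (chr9:78297143-78330093, GRCh38), had 587 and 617 CPM with erlotinib and 20.1 and 20.9 CPM with osimertinib in PC9. In H1650 it had 539 and 551 against 108 and 101 CPM. The erlotinib libraries of the lines were alike, and the osimertinib libraries were not, with PC9 under its T0 level (151 and 161 CPM) and H1650 just above its own (90.6 and 89.5 CPM). PSAT1 was 29.4-fold lower with osimertinib in PC9 and 5.22-fold lower in H1650, an interaction of 2.49 ± 0.12 (adjusted p = 1.74e-15).

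PHGDH, which starts serine synthesis, showed the same arrangement. It had 409 and 404 against 37 and 38.3 CPM in PC9 and 436 and 430 against 180 and 177 CPM in H1650. The interaction was 2.16 ± 0.11 (adjusted p = 1.11e-14). For the mitochondrial folate enzymes the interaction was 1.56 ± 0.12 for MTHFD2 and 2.50 ± 0.30 for ALDH1L2, and for ASNS, which makes asparagine and whose promoter is printed above, it was 2.33 ± 0.40. In PC9, ASNS had 342 and 468 reads with erlotinib and 19 and 5 with osimertinib. By contrast PSPH, the last enzyme of serine synthesis, and ALDH18A1, of proline synthesis, were shared, PSPH lower and ALDH18A1 higher with osimertinib. SHMT2 and GPT2 were shared too, and each had a small positive interaction (0.43 ± 0.12 and 0.49 ± 0.11). The call was lost for SHMT2 without erlotinib replicate 1 of H1650 (adjusted p = 0.0691), osimertinib replicate 1 of PC9 (0.154) or osimertinib replicate 1 of H1650 (0.14), and for GPT2 without osimertinib replicate 1 of H1650 (0.0709).

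Stress and secreted ATF4 targets were lower with osimertinib in both lines, with a median of −2.16 in PC9 and −1.90 in H1650 over 9 genes. Of these, 8 were called lower in PC9 (6.36% of all genes tested) and 7 in H1650 (3.46%), and 6 had a positive interaction (1.64%). ADM2, a secreted peptide hormone, had 43 and 44.2 against 1.06 and 1.23 CPM in PC9 and 31.6 and 32.1 against 7 and 4.26 CPM in H1650. Its interaction of 2.75 ± 0.27 was among the highest of any gene of at least 10 CPM. CHAC1 had 28.8 and 22.4 against 0.922 and 1.17 CPM in PC9 and 40.5 and 39.6 against 6.38 and 8.53 CPM in H1650, an interaction of 2.19 ± 0.28 (adjusted p = 2.56e-06). DDIT4, an inhibitor of mTORC1, passed in PC9 only: 155 and 144 against 42.6 and 45.3 CPM there, and 225 and 231 against 208 and 190 CPM in H1650 (interaction 1.57 ± 0.12, adjusted p = 1.23e-10). SESN2, another restraint on mTORC1, was shared, with differences of −2.16 and −1.55. The interaction call of SESN2 (0.61, adjusted p = 0.0181) was lost without erlotinib replicate 1 of H1650 (0.0529) or osimertinib replicate 1 of PC9 (0.15) or of H1650 (0.13).

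GDF15 went against this order. This stress-induced hormone had 14.9 and 12.5 against 5.4 and 6.03 CPM in PC9 and 29.1 and 24.7 against 7.1 and 4.57 CPM in H1650. The interaction of −0.94 ± 0.24 (adjusted p = 0.0161, edgeR quasi-likelihood test) was lost without osimertinib replicate 2 of PC9 (0.0643) or of H1650 (0.156).

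**Figure D2:**
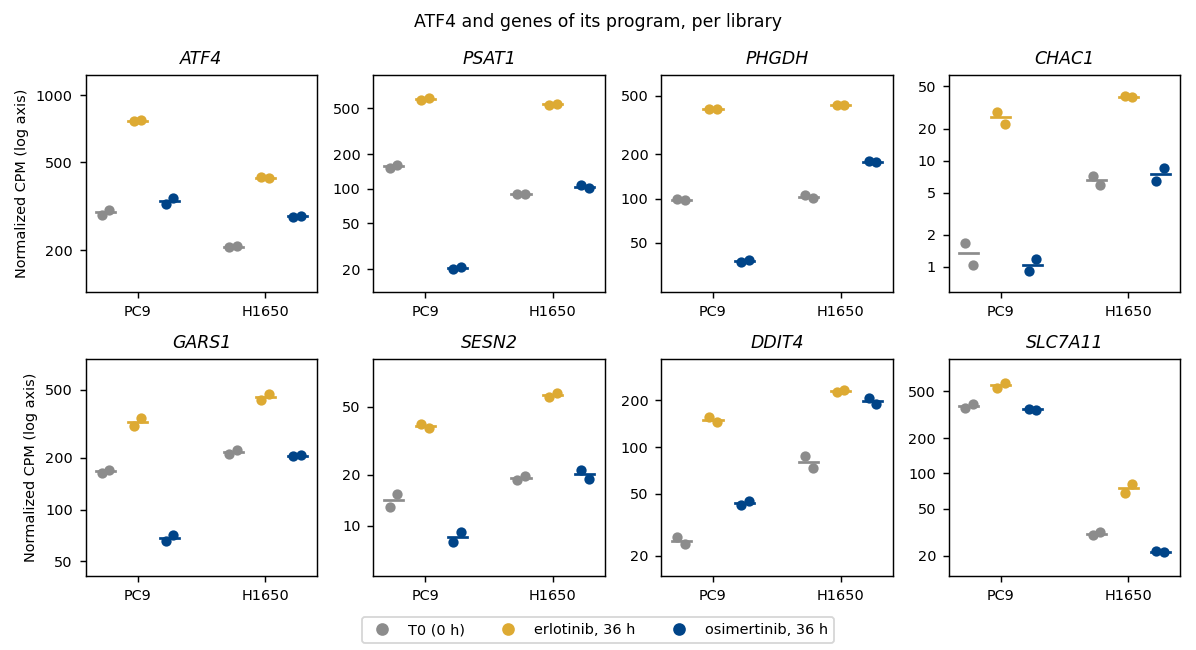
Normalized CPM on a log axis for ATF4 and 7 genes of its program, 1 point per library and a bar at each group's mean, with T0 in grey, erlotinib in yellow and osimertinib in blue. PSAT1 and PHGDH have similar erlotinib levels in the lines and lower osimertinib levels in PC9, and CHAC1 is lower in PC9 with each drug. SESN2 is lower with osimertinib in both (−2.16 and −1.55). DDIT4 is 3.41-fold lower in PC9 and 1.15-fold lower in H1650, and SLC7A11 falls further in H1650.

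Most amino acid transporters were lower with osimertinib in both lines, with similar medians. Of 10 transporter genes tested, 9 were lower in PC9 (6.36% of all genes) and 8 in H1650 (3.46%), with medians of −0.982 and −0.934. The interaction was called positive for 3 (1.64%) and negative for 1 (3.34%), and 4 were shared (3.13%). The shared genes were both chains of the large neutral amino acid transporter, SLC7A5 and SLC3A2, the cationic transporter SLC7A1 and the glycine transporter SLC6A9. SLC6A9 also had a positive interaction called (0.61). SLC7A1 had 175 and 181 against 75.3 and 78.5 CPM in PC9 and 123 and 129 against 69.6 and 67.8 CPM in H1650, an interaction of 0.33 (0.10 to 0.57, adjusted p = 0.0932). The glutamine transporter SLC1A5 had 428 and 408 against 97.8 and 99 CPM in PC9 and 643 and 619 against 380 and 339 CPM in H1650, an interaction of 1.27 ± 0.11. SLC7A11, the cystine transporter, was the exception in the other direction. It had 534 and 592 against 353 and 348 CPM in PC9 and 68.5 and 81.8 against 21.9 and 21.4 CPM in H1650, a change of −0.68 ± 0.08 and −1.80 ± 0.10 and an interaction of −1.12 ± 0.13 (adjusted p = 4.08e-07). Without osimertinib replicate 1 of H1650, 2 transporters had a negative interaction.

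Most cytosolic aminoacyl-tRNA synthetases, which load tRNAs with amino acids, were also lower with osimertinib. Of 20, 13 were lower in PC9 (6.36% of all genes tested) and 12 in H1650 (3.46%), and the median was −1.03 in PC9 and −0.495 in H1650. The interaction was positive and called for 11 (1.64%), and 10 genes were shared (3.13%), some of them with a small called interaction. GARS1 had 308 and 342 against 65.4 and 71 CPM in PC9 and 436 and 474 against 204 and 207 CPM in H1650, an interaction of 1.11 ± 0.12 (adjusted p = 7.8e-08). AARS1, for alanine, had an interaction of 1.24 ± 0.11 and IARS1, for isoleucine, of 1.17. FARSA, HARS1, QARS1 and VARS1 had values between −0.12 and 0.15 in the lines and were not called in either. The count of 11 became 7 without erlotinib replicate 1 of H1650, 6 without osimertinib replicate 1 of PC9, 7 without osimertinib replicate 1 of H1650 and 7 without erlotinib replicate 2 of PC9.

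The T0 libraries, which entered the interaction only through the normalization factors, gave similar counts for erlotinib in the 2 lines and different counts for osimertinib. Both erlotinib libraries were above both T0 libraries for 10 of 13 amino acid synthesis genes in PC9 and 11 of 13 in H1650 (43% and 33.5% of all genes tested). Both osimertinib libraries were below both T0 libraries for 8 of 13 in PC9 (36.5% of all genes) and for 3 of 13 in H1650 (32.7%), where 8 were above (33%). For the synthetases, osimertinib was below T0 for 18 of 20 in PC9 and 13 of 20 in H1650. The difference between these counts was not tested.

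Cholesterol synthesis genes were higher with osimertinib in H1650 and not in PC9. Of 22 genes of synthesis and uptake, 17 were higher in H1650 (4.78% of all genes tested) and none lower. In PC9 2 were higher (10.2%) and 4 lower (6.36%). The interaction was called positive for 13 (1.64%) and negative for none, and the median difference was 0.576 in H1650 and −0.0756 in PC9. FDFT1, which makes squalene, and SQLE, MSMO1 and DHCR7, which act after it, passed in both lines in opposite directions. MSMO1, a sterol methyl oxidase (chr4:165327623-165343160, GRCh38), had 110 and 116 against 77 and 84.4 CPM in PC9 and 66 and 72.4 against 113 and 113 CPM in H1650. The drug groups did not overlap, with osimertinib lower in PC9 and higher in H1650. The differences were −0.48 ± 0.08 and 0.71 ± 0.08, and the interaction was 1.19 ± 0.12 (adjusted p = 3.62e-08). For DHCR7, which makes cholesterol in the last step, the interaction was 1.12 ± 0.11.

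HMGCS1, which makes HMG-CoA at the start of the pathway, had 121 and 129 against 113 and 122 CPM in PC9 and 95.2 and 104 against 153 and 163 CPM in H1650. The PC9 groups overlapped and the H1650 groups did not (interaction 0.75 ± 0.12, adjusted p = 7.98e-05). The sterol sensor INSIG1 had an interaction of 0.49 (adjusted p = 0.0176), which moved to an adjusted p between 0.0535 and 0.0833 without osimertinib replicate 1 of PC9, erlotinib replicate 2 of PC9, or osimertinib replicate 1, osimertinib replicate 2 or erlotinib replicate 2 of H1650. In H1650, both osimertinib libraries were above T0 for 16 of the 22 genes (33% of all genes tested), and both erlotinib libraries were below T0 for 12 (32.8% of all genes tested).

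Fatty acid synthesis followed in part. Of 8 genes, 5 were higher in H1650 (4.78% of all genes tested) and none lower. In PC9 3 were higher (10.2%) and 1 was lower (6.36%). A positive interaction was called for 3 (1.64%): ACLY, FASN and SCD. SCD, the desaturase that makes oleate, had 235 and 256 against 209 and 213 CPM in PC9 and 768 and 810 against 1527 and 1504 CPM in H1650. Its interaction was 1.16 ± 0.11 (adjusted p = 1.37e-08). FASN was higher in both lines (0.27 ± 0.09 and 0.74 ± 0.09) and was shared. Its interaction (0.47, adjusted p = 0.0186) was lost without erlotinib replicate 1 (0.0992) or osimertinib replicate 2 (0.105) of PC9, or osimertinib replicate 1 (0.093) or erlotinib replicate 2 (0.0645) of H1650, and that of ACLY without erlotinib replicate 1 of H1650 (0.0567). Without erlotinib or osimertinib replicate 1 of H1650, or osimertinib replicate 2 of H1650, 3 genes were called higher in H1650. Without osimertinib replicate 1 of PC9, 1 gene was called higher in PC9.

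Hypoxia and glycolysis genes were higher with osimertinib mainly in H1650. Of 17 hypoxia genes, 10 were higher and 1 lower in H1650, against 4 higher and 4 lower in PC9, with 8 positive interactions and medians of 0.536 and 0.070. Of 19 glycolysis genes, 15 were higher in H1650 and 6 in PC9, with 5 positive interactions and 6 shared genes. Neither list had a negative interaction call (3.34% of all genes tested). Among all genes tested, 4.78% were higher and 3.46% lower in H1650, and 10.2% were higher and 6.36% lower in PC9. Positive interactions were 1.64% and shared genes 3.13% of all genes. PFKFB4, which sets the level of an activator of glycolysis, had 7.19 and 7.11 against 7.1 and 6.98 CPM in PC9 and 14.5 and 13.5 against 40.2 and 40 CPM in H1650. The interaction was 1.55 ± 0.19 (adjusted p = 1.15e-06), with an interval of the PC9 difference from −0.32 to 0.27.

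BNIP3 had 30.6 and 34 against 31.4 and 30.6 CPM in PC9 and 65.5 and 70.1 against 132 and 129 CPM in H1650. The H1650 groups were about 1.93-fold apart and the PC9 groups overlapped (interaction 1.01 ± 0.13, adjusted p = 2.37e-06). PDK1 had 8.04 and 8.4 against 8.12 and 9.21 CPM in PC9 and 21.9 and 19 against 41.7 and 41.8 CPM in H1650 (interaction 0.96 ± 0.18). VEGFA, the angiogenic growth factor, also had a positive interaction (1.33 ± 0.12), but from a fall in PC9: 190 and 171 against 61 and 55.6 CPM there and 237 and 216 against 185 and 185 CPM in H1650. The hypoxia count of 8 became 5 without osimertinib replicate 1 of PC9, without osimertinib replicate 1 of H1650 or without erlotinib replicate 2 of PC9. The glucose transporters SLC2A1 and SLC2A3, and LDHA, which makes lactate, were shared and higher with osimertinib. Erlotinib libraries of H1650 lay below T0 for 18 of the 19 glycolysis genes and osimertinib libraries for 10, whereas in PC9 the counts were 16 and 15. Over all genes tested these shares were 32.8% and 32.7% in H1650 and 36.1% and 36.5% in PC9.

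**Figure D3:**
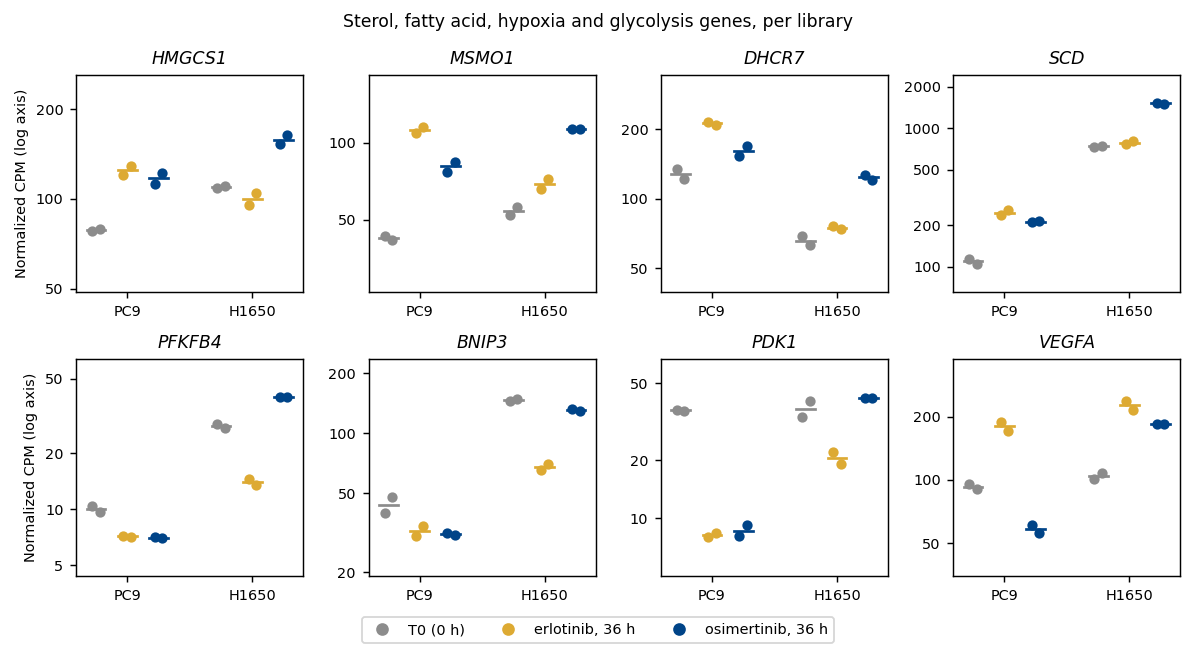
Normalized CPM on a log axis for sterol and fatty acid genes (HMGCS1, MSMO1, DHCR7, SCD) and hypoxia and glycolysis genes (PFKFB4, BNIP3, PDK1, VEGFA), 1 point per library and a bar at each group's mean. In H1650 osimertinib lies above erlotinib for all but VEGFA, and in PC9 it lies below erlotinib for MSMO1, DHCR7, SCD and VEGFA and close to it for the rest.

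Several feedback inhibitors of ERK signaling, whose transcription reports its activity, were lower with osimertinib in H1650 and not in PC9. Of 10 feedback genes, 5 were lower and 1 higher with osimertinib in H1650 (3.46% and 4.78% of all genes tested). In PC9 3 were higher (10.2%) and none lower, and 5 genes had a negative interaction (3.34%). The medians were −0.580 in H1650 and 0.181 in PC9. DUSP4, a phosphatase that acts on ERK, had 16.5 and 16.4 against 16 and 14.4 CPM in PC9 and 12.6 and 13.4 against 4.95 and 6.4 CPM in H1650. The PC9 difference of −0.11 had an interval of −0.39 to 0.17, and the H1650 difference was −1.19 ± 0.15 (interaction −1.08 ± 0.21, adjusted p = 0.00092). In PC9 both drugs left DUSP4 far under T0 (256 and 250 CPM), and in H1650 T0 was 8.46 and 8.12 CPM, between the drugs. Of the 10 feedback genes, all 10 were below T0 with each drug in PC9 (36.1% and 36.5% of all genes tested). In H1650, erlotinib was above T0 for 8 (33.5%) and below for 2 (32.8%). Osimertinib was above T0 for 3 (33%) and below for 4 (32.7%) in that line.

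SPRED1, which blocks RAF activation, had 7.28 and 7.54 against 7.33 and 7.42 CPM in PC9 and 31.8 and 33.3 against 15.2 and 16.9 CPM in H1650, an interaction of −1.01 ± 0.19 (adjusted p = 0.000769). The drug groups overlapped in PC9 and did not in H1650. SPRY2 had an interaction of −0.91 and SPRY1 of −1.20, and DUSP8, a phosphatase outside this list that acts on stress kinases, of −1.34 ± 0.31. SPRY2 lost its call without either replicate 2 library of H1650, erlotinib replicate 1 of PC9 or osimertinib replicate 2 of PC9 (adjusted p from 0.059 to 0.0965), and SPRY1 without erlotinib replicate 1 of H1650 (0.0816) or osimertinib replicate 2 of PC9 (0.101). The count of 5 became 3 without erlotinib replicate 1 of H1650 or without osimertinib replicate 2 of PC9. DUSP6, the ERK phosphatase most often read as its output, had 0.313 and 0.311 against 0.369 and 0.335 CPM in PC9 and 2.16 and 3.2 against 1.57 and 1.42 CPM in H1650, and was not called in any comparison.

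FOS and EGR1, immediate early transcription factors that ERK induces, were higher with osimertinib in both lines. The difference was negative in sign for 8 of 10 feedback genes in H1650 and 4 of 10 in PC9. Of the 10 ERK-dependent factors and targets in their list, 3 were higher and 3 lower in PC9, 2 were higher and 5 lower in H1650, and 4 had a negative and 1 a positive interaction. Without osimertinib replicate 1 of H1650, 3 were lower in H1650. Among all genes tested, 10.2% were higher and 6.36% lower in PC9, and 4.78% were higher and 3.46% lower in H1650. Negative interactions were 3.34% and positive ones 1.64% of all genes. FOS had 29.8 and 23.1 against 139 and 127 CPM in PC9 and 69.4 and 76.6 against 119 and 130 CPM in H1650. The differences were 2.34 ± 0.10 and 0.77 ± 0.10, and the interaction was −1.57 ± 0.14 (adjusted p = 2.99e-09). EGR1 was shared, with 1.57 ± 0.09 and 1.01 ± 0.09. Its interaction call (−0.56, adjusted p = 0.00541) was lost without osimertinib replicate 1 of PC9 (0.0636). NR4A1 passed in PC9 only, with 52 and 35 reads against 160 and 128 reads, and an interaction of −1.85 ± 0.26. MYC, by contrast, was lower in PC9 (−0.51) with a positive interaction of 0.55, and cyclin D1 (CCND1) was lower in H1650 (−0.41) with a negative interaction of −0.54.

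A minority of replication genes were called higher with osimertinib in PC9 or lower in H1650, by small amounts. The interaction was negative in sign for 26 of 27 genes, against 49.7% positive in sign over all genes tested. It was called for 7, all negative (3.34% of all genes). In PC9 8 were higher (10.2%) and 1 lower (6.36%), in H1650 6 were lower (3.46%) and none higher, and the medians were 0.223 and −0.216. MCM10, E2F1 and RRM2 passed in opposite directions. MCM10, which loads at replication origins, had 1.03 and 1.48 against 2.4 and 3.01 CPM in PC9 and 45.1 and 43.7 against 35.2 and 34.7 CPM in H1650, an interaction of −1.42 ± 0.26 (adjusted p = 0.000552). E2F1 had 3.49 and 4.35 against 5.86 and 7.09 CPM in PC9 and 276 and 249 against 177 and 209 CPM in H1650, an interaction of −1.15 ± 0.19 (adjusted p = 0.00013). The drug groups of both genes did not overlap in either line.

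The level at which this happened differed between the lines. At T0 MCM10 had 60.5 and 66 CPM in PC9 and 62.1 and 64.7 CPM in H1650, so that both drugs left PC9 far below its start and H1650 nearer to it. In PC9 all 27 replication genes were below T0 with each drug, and in H1650 22 were with erlotinib and 27 with osimertinib (36.1% and 36.5% of all genes tested in PC9, 32.8% and 32.7% in H1650). The counts rest on few libraries: the 6 lower genes in H1650 became 0 without osimertinib replicate 1, 2 without erlotinib replicate 1, 1 without erlotinib replicate 2 and 3 without osimertinib replicate 2 of that line. Without osimertinib replicate 2 of PC9, the 8 higher genes in PC9 and the 7 interactions became 4 each. Of 26 mitosis genes, 0 had the interaction called by edgeR (4.98% of all genes tested) or by DESeq2. An unadjusted p under 0.05 was found for 7 of them, against 2974 of the 18540 genes tested.

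About as many interferon-stimulated genes passed as did not, a larger share than over all genes, and those that passed were higher with osimertinib. Of 33 tested, 18 were higher in PC9 (10.2% of all genes tested) and 15 in H1650 (4.78%), and none were called lower. The medians were 0.513 and 0.256. A negative interaction was called for 7 (3.34%), and 7 were shared (3.13%). OAS1 and OAS3, which sense double-stranded RNA, were shared with interactions of −0.00 and −0.02, and so were IFI6 and IFITM1. IFIT2, which binds viral RNA, had 17.6 and 19.4 against 47.4 and 52.2 CPM in PC9 and 94.1 and 104 against 97.5 and 87.1 CPM in H1650. The groups were apart in PC9 and overlapped in H1650 (interaction −1.53 ± 0.13, adjusted p = 2.99e-09). OAS2 had 10 and 19 reads against 48 and 40 reads in PC9, and 263 and 272 against 308 and 286 CPM in H1650 (interaction −1.72 ± 0.29). IFIT1, whose promoter is printed above, was higher in both lines (1.30 ± 0.15 and 0.58 ± 0.08). Its interaction of −0.71 (adjusted p = 0.0108) was lost without erlotinib replicate 1 (0.0829) or osimertinib replicate 1 (0.0768) of PC9. Without erlotinib replicate 1 of PC9 the list had 3 interactions, and without osimertinib replicate 1 of H1650 8 genes were higher in H1650 and 4 were shared. Levels in H1650 were above those in PC9 throughout for OAS2, IFIT1 and IFIT2.

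**Figure D4:**
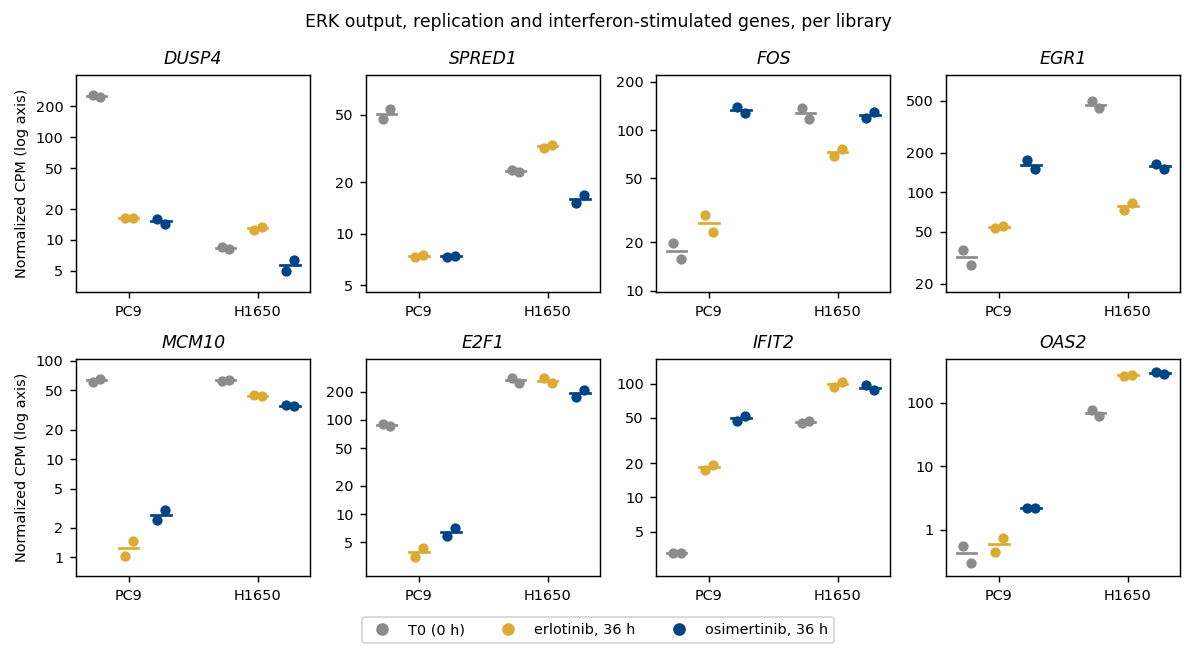
Normalized CPM on a log axis for ERK output genes (DUSP4, SPRED1, FOS, EGR1), replication genes (MCM10, E2F1) and interferon-stimulated genes (IFIT2, OAS2), 1 point per library and a bar at each group's mean. DUSP4 and SPRED1 differ between the drugs by 2.28-fold and 2.03-fold in H1650 and by 1.08-fold and 1.01-fold in PC9, IFIT2 and OAS2 pass the test in PC9 only, and MCM10 and E2F1 lie in opposite order in the lines.

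Several matrix genes were higher with osimertinib in PC9. Of 15 mesenchymal and matrix genes, 9 were higher in PC9 (10.2% of all genes tested) and 4 in H1650 (4.78%). There were 5 negative interactions (3.34%) and 1 positive (1.64%). FN1, fibronectin, had 244 and 272 against 613 and 651 CPM in PC9 and 406 and 426 against 519 and 446 CPM in H1650. The groups overlapped in neither line, and the H1650 difference of 0.21 was not called (interaction −1.08 ± 0.12, adjusted p = 2.25e-07). SPARC, a matrix glycoprotein, had 45.3 and 50.5 against 103 and 116 CPM in PC9 and 340 and 321 against 399 and 366 CPM in H1650 (interaction −0.98 ± 0.12). LOXL2, a collagen cross-linking enzyme, went the other way: 125 and 119 against 75.9 and 72.3 CPM in PC9 and 261 and 251 against 414 and 380 CPM in H1650 (interaction 1.35 ± 0.11, adjusted p = 1.41e-09). Without osimertinib replicate 1 of H1650, 0 matrix genes were called higher in H1650 and the 1 positive interaction (COL4A1, 0.59) was lost (adjusted p = 0.173), as it was without osimertinib replicate 2 of PC9 (0.0834), and without erlotinib replicate 1 of H1650 2 were higher. The fibroblast marker COL1A1 was also higher in PC9 (24.1 and 20.3 against 44.6 and 36.5 CPM) and had 11.2 and 9.94 against 14.8 and 12.7 CPM in H1650, while the fibroblast genes DCN and LUM were at or near 0 reads. The summed level of the markers of other cell types was 22 to 26.3 CPM with erlotinib and 39.6 to 48.7 CPM with osimertinib in PC9, and 12.7 to 14.4 against 17.2 to 19.6 CPM in H1650.

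Some of the most extreme interactions were in genes with a low level in one of the lines. Among genes of at least 10 CPM on average, the lowest values included SLC7A7, a cationic amino acid transporter subunit, CLEC7A, the receptor Dectin-1, and FHL1, a LIM-domain protein. SLC7A7 had 18.8 and 16.9 against 43.3 and 41.8 CPM in PC9, and in H1650 19 and 23 reads with erlotinib against 5 and 7 with osimertinib (interaction −3.13 ± 0.42, adjusted p = 5.74e-06). CLEC7A had 4.33 and 3.81 against 20.2 and 22.7 CPM in PC9 and 31.5 and 31.6 against 36.3 and 41.6 CPM in H1650 (−2.09 ± 0.18). FHL1 was lower with osimertinib in H1650, 25.7 and 29.8 against 10.6 and 11.5 CPM, and had 0.67 and 1.48 against 1.94 and 1.79 CPM in PC9 (−2.09 ± 0.34). FAM241A had 4.65 and 6.3 against 0.968 and 0.837 CPM in PC9 and 38.3 and 38.2 against 37 and 40.6 CPM in H1650 (2.61 ± 0.26, adjusted p = 4.05e-08). PLEKHA6 passed in opposite directions, 0.54 ± 0.09 in PC9 and −0.58 ± 0.12 in H1650.

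Several extreme interactions rested on few reads in one line. NKD1, an inhibitor of WNT signaling, had 9 and 11 reads with erlotinib and 1 and 1 with osimertinib in PC9, a ratio of 8.23 with a 95% counting interval of 2 to 72.7, and 27.7 and 30.6 against 33.1 and 29.4 CPM in H1650. ALPK2 and SDK2 had 0 and 0 reads with erlotinib in PC9, with 4 and 3 and 2 and 6 reads with osimertinib, so no fold is given. PRRT4 had 7 and 5 against 16 and 26 reads in PC9, a ratio of 4.25 (2.2 to 8.87). In H1650, LINC01234 had 1 and 2 against 4 and 12 reads, a ratio of 5.02 (1.44 to 26.9). For CP, the copper carrier ceruloplasmin, PC9 had 11 and 5 against 6 and 0 reads. These intervals cover counting error only. The interaction calls of these genes were not stable to leaving out a library, except for PRRT4. Without osimertinib replicate 2 of PC9 the adjusted p was 0.0632 for NKD1, 0.112 for CP and 0.269 for SDK2, without osimertinib replicate 1 of PC9 it was 0.125 for NKD1, 0.0592 for ALPK2 and 0.055 for LINC01234, and without erlotinib replicate 1 of PC9 it was 0.269 for CP and 0.0878 for SDK2. Without erlotinib replicate 2 of PC9 it was 0.0549 for ALPK2 and 0.11 for SDK2, and for LINC01234 it was 0.141, 0.075 and 0.507 without erlotinib replicate 1, erlotinib replicate 2 and osimertinib replicate 2 of H1650.

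**Figure D5:**
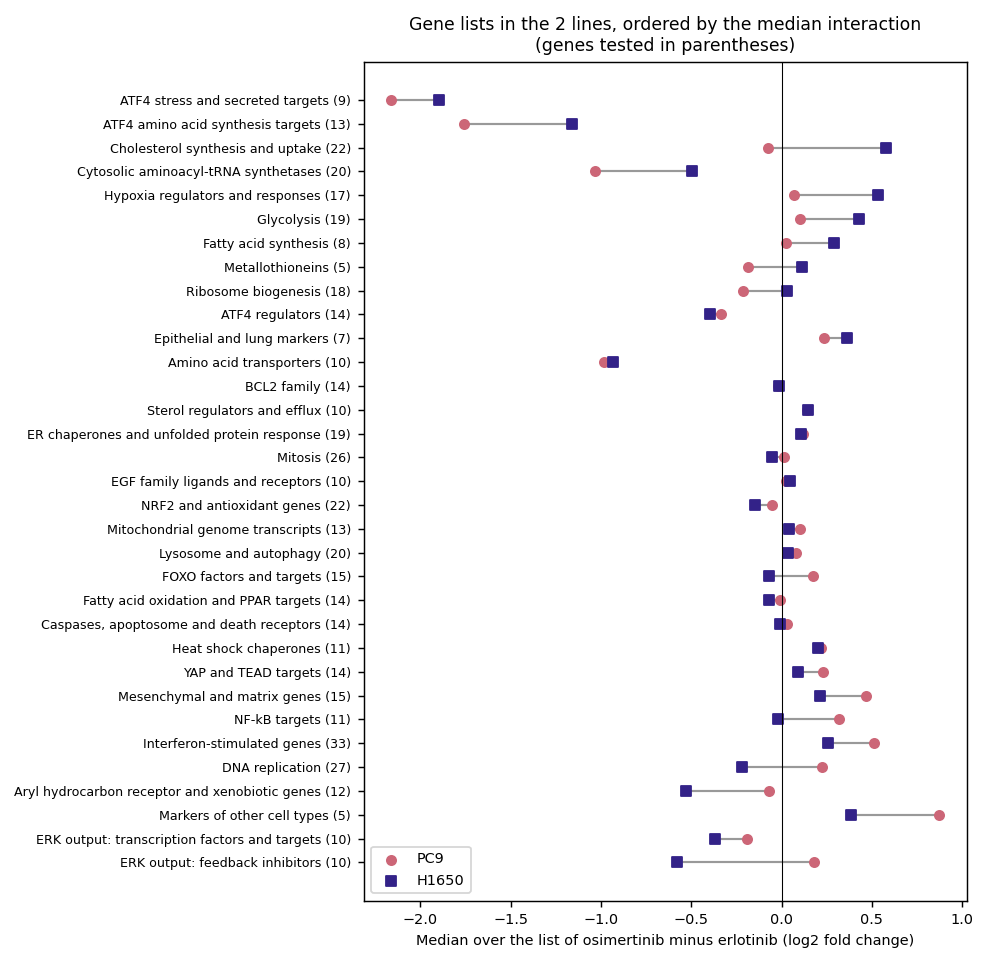
Median log2 difference of osimertinib minus erlotinib over each of the 33 gene lists, with PC9 as circles and H1650 as squares joined by a line and the number of genes tested in parentheses, ordered by the median interaction. ATF4 targets and the tRNA synthetases lie further below 0 in PC9, the cholesterol, hypoxia and glycolysis lists lie further above 0 in H1650, and the ERK feedback list lies below 0 in H1650 and above it in PC9.

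The remaining lists differed in how many interactions they held, against 4.98% of all genes tested (1.64% positive and 3.34% negative). In the FOXO list 5 of 15 genes were called, 2 positive and 3 negative, among them the insulin receptor substrate IRS1 (−0.72 ± 0.15). In the aryl hydrocarbon receptor list 3 of 12 were called: the receptor AHR (0.59 ± 0.12), the quinone reductase NQO1 (−0.63 ± 0.11) and TIPARP (−0.45), whose call was lost without erlotinib replicate 1 or osimertinib replicate 2 of PC9, either osimertinib library of H1650 or erlotinib replicate 2 of H1650 (adjusted p from 0.0605 to 0.151). Of 10 sterol regulators 2 were positive and 2 negative, but without osimertinib replicate 1 or erlotinib replicate 2 of PC9, or osimertinib replicate 1, osimertinib replicate 2 or erlotinib replicate 2 of H1650, 0 were positive. The positive count was 1 without erlotinib replicate 1 or osimertinib replicate 2 of PC9, and the negative count was 1 without osimertinib replicate 2 of PC9 or of H1650. The 2 positive FOXO interactions became 1 without either osimertinib library of PC9 or of H1650, or erlotinib replicate 2 of PC9, and the 2 negative aryl hydrocarbon receptor interactions became 4 without erlotinib replicate 1 of H1650 and 1 without erlotinib or osimertinib replicate 2 of H1650. Of 19 endoplasmic reticulum chaperone genes, 7 were higher in each line (10.2% of all genes tested in PC9 and 4.78% in H1650). Their median interaction was −0.002, with 1 positive and 2 negative calls. Of 18 ribosome biogenesis genes, 8 were lower in PC9 (6.36% of all genes tested). In H1650 0 were called by edgeR (8.24% of all genes) or DESeq2, and 1 had an unadjusted p under 0.05 (3866 of 18540 genes). A positive interaction was called for 2, and its sign was positive in 18 of 18 (49.7% of all genes). The NRF2, fatty acid oxidation, heat shock, mitochondrial genome and caspase lists had 0 interaction calls by edgeR. In lists of 11 to 22 genes, 0 is near the 4.98% of all genes tested. At an unadjusted p under 0.05 these lists held 10 of 22, 2 of 14, 2 of 11, 3 of 13 and 4 of 14. The interactions of 2974 of the 18540 genes tested passed that threshold. DESeq2 called 1 NRF2 gene and none in the other lists. In the BCL2 family, BMF, which promotes apoptosis, had an interaction of 0.40 and BCL2L1, which opposes it, of −0.45, though the calls were lost without any of 6 libraries for BMF (adjusted p from 0.0963 to 0.193) and any of 4 for BCL2L1 (0.0751 to 0.143). BMF kept its call without erlotinib replicate 1 of PC9 and erlotinib replicate 2 of H1650, and BCL2L1 lost it without erlotinib replicate 1 and osimertinib replicate 2 of PC9 and both replicate 2 libraries of H1650. BCL2L11 (BIM) differed by 0.03 and 0.14 in the lines and was not called. Of 516 listed genes, 487 were tested, 23 were under the expression filter and 6 were not in the table used here.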

How the data were processed

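Samples were grouped by the deposited labels. Reads had been run through DolphinNext by the authors, and the deposited values are whole-number counts of reads per gene and library, not normalized. The submitters' processing notes name GRCh38 and DESeq2. The aligner, annotation release and strandedness are not given in the sources used here, so reads of overlapping or antisense genes could not be told apart.

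The analysis used edgeR 4.0.16 in R 4.3.3. Normalization factors were computed by TMM over the 12 libraries, and the expression filter on the 8 treated libraries kept 18540 of 60591 genes. A quasi-likelihood model with 1 mean per group (4 residual degrees of freedom) tested each line's difference and the interaction, with Benjamini-Hochberg adjustment over all genes tested. CPM are TMM-normalized. In these libraries 3 counts are 0.117 to 0.167 CPM. Intervals are 95%, and counting intervals cover counting error only. Gene positions are from GENCODE 29, matched by symbol. The script was tested on simulated data. DESeq2 1.42.0, other normalizations and filters, a stricter threshold, a replicate block and leaving out each library were tried as alternatives.

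Genes named outside the lists were those of at least 10 CPM on average with the highest or lowest interaction, with opposite differences, with the largest shared difference, or called in 1 line while the other line's difference was within 0.5. The comparison, its gene lists and these rules were chosen with earlier results of these data known.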

Additional observations from a re-analysis of the deposited data

Results flagged for a closer look

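The difference between osimertinib and erlotinib itself differed between H1650 and PC9 for 924 genes, by the interaction test over the 8 treated libraries. The genes named by rule are listed here with their interaction on the log2 scale, H1650 minus PC9. Those with the highest values were NKD1 (3.005), CP (2.79), ADM2 (2.75), FAM241A (2.61), LINC01234 (2.59) and ALDH1L2 (2.50), and those with the lowest were ALPK2 (−5.64), SDK2 (−5.14), SLC7A7 (−3.13), PRRT4 (−2.44), CLEC7A (−2.09) and FHL1 (−2.09). ALPK2 and SDK2 had 0 reads with erlotinib in PC9, so their fitted values depend on the prior count. Genes that passed in both lines in opposite directions included LOXL2 (1.35), MSMO1 (1.19), LRRC75B (1.58) and PLEKHA6 (−1.12). The H1650 difference of LRRC75B was not called with upper quartile factors (adjusted p = 0.054), by DESeq2 (0.083) or without osimertinib replicate 1 (0.161), osimertinib replicate 2 (0.0907) or erlotinib replicate 2 (0.233) of H1650, nor its PC9 difference without erlotinib replicate 1 of PC9 (0.153).

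Shared genes whose interaction was nonetheless called were STC1 (−0.58), EGR1 (−0.56), SESN2 (0.61), GPT2 (0.49), WARS1 (0.47) and SHMT2 (0.43). Genes that differed between the drugs in H1650, with a PC9 interval close to 0, were KIAA0319 (1.86), PFKFB4 (1.55), DEPP1 (1.18), DUSP8 (−1.34), WNT5A-AS1 (−1.28) and DUSP4 (−1.08). In H1650, KIAA0319 had 5 and 12 reads with erlotinib against 26 and 35 with osimertinib, a ratio of 3.38 (counting interval 1.95 to 6.17). WNT5A-AS1 is an antisense gene and its reads could not be told apart from those of its partner. Genes that differed in PC9, with an H1650 interval close to 0, were NR4A1 (−1.85), OAS2 (−1.72) and DDIT4 (1.57), beside NKD1, FAM241A and SDK2. The STC1 call was lost without either osimertinib library of PC9, erlotinib replicate 2 of PC9, either osimertinib library of H1650 or erlotinib replicate 2 of H1650 (adjusted p from 0.0557 to 0.164). The WARS1 call was lost without replicate 1 of either H1650 drug group, osimertinib replicate 1 of PC9 or erlotinib replicate 2 of PC9 (0.0599 to 0.122), and the WNT5A-AS1 call without osimertinib replicate 1 of PC9, osimertinib replicate 1 of H1650 or erlotinib replicate 2 of H1650 (0.0707 to 0.221).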

How the results depend on the processing

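Every called interaction of a gene named by rule kept its direction under all alternatives in which it was tested. The interaction of MGP, not called, was near 0 throughout (−0.2271 to 0.07134). The count of 924 interactions was between 880 (DESeq2) and 990 (all 12 libraries) under other normalizations, tools, filters and samples in the fit, and the 669 of 8992 genes with at least 10 CPM in a drug group of each line (7.44%), a restriction chosen after seeing the data, had the interaction called. Upper quartile factors gave 352 positive and 531 negative interactions. At an adjusted p under 0.01 there were 456 interactions, 1852 differences in PC9 and 836 in H1650, 311 shared genes and 374 of the genes with the interaction called that were called in 1 line or in opposite directions.

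With the replicate number as a block, 1618 interactions, 4054 differences in PC9, 2557 in H1650, 982 shared genes and 1332 of the line-dependent genes were called. The labels do not say that a replicate number marks a shared source, day or batch, and with 2 replicates per group the data cannot settle it, so the numbers were not taken to pair the samples. The correlation of same-numbered libraries' deviations was above 0.1 for 5 of 6 pairs of groups (0.167 to 0.457) and −0.0165 for osimertinib in the 2 lines. The shift was not tested for a cause.

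Leaving out each library gave 658 to 933 interactions, 2023 to 3303 differences in PC9, 729 to 1906 in H1650, 287 to 532 shared genes and 552 to 754 line-dependent genes. Of 125 listed genes with the interaction called, 66 were called under all 16 alternatives. Of the genes named by rule, NKD1, CP, LINC01234, ALPK2, SDK2, STC1, EGR1, SESN2, GPT2, WARS1, SHMT2 and WNT5A-AS1 lost the call in at least 1. Depth limits genes at few reads: interaction calls were 1.58% below 10 CPM.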
